A study of Camelus dromedarius with 4 samples.

Results

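The genes of cilia were followed in the supraoptic nucleus of the dromedary camel in winter and summer. They were chosen by symbol: DNAH, RSPH, BBS or IFT followed by a digit, plus FOXJ1, CCDC39, CCDC40, HYDIN, SPAG6, SPEF2, DNAI1 and DNAI2. Of 16053 symbols with a mean in both seasons, 47 were of this kind, and RSPH9, the only other symbol to meet the name rule, was listed without means. They fall into 26 axonemal genes, whose products build or switch on the beating cilium, and 21 transport genes, which serve cilia of every kind.

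The nucleus is the part of the hypothalamus whose large neurones make vasopressin and oxytocin, and the study asked how it differs between seasons. Total RNA was sequenced from 2 winter and 2 summer libraries of hydrated, age-matched adult males of the Tergui breed, none of them carrying a transgene or given a drug. The winter and summer animals were slaughtered at different places and dates, so season, place and date cannot be told apart. The libraries held 4379162 to 6902037 reads on unnamed gene models, and p-values measure the spread between 2 libraries in each season.

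A motile cilium is a bundle of microtubules (the axoneme) in which outer and inner dynein arms slide neighbouring doublets, while radial spokes and a central pair of microtubules set the beat. In the brain such cilia stand in tufts on ependymal cells, which line the ventricles and move the cerebrospinal fluid. Most other brain cells, neurones and astrocytes included, carry a single immotile primary cilium without these parts. Both kinds are built by intraflagellar transport, in which complexes A and B carry cargo along the axoneme, and membrane proteins leave them with the help of the BBSome, the complex named after Bardet-Biedl syndrome.

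Named genes were deposited only as season means of normalized counts, that is, reads divided by the size factor of their library, a number that removes its depth. A mean of 2 libraries is a sum of whole reads, each worth a fixed step, and for many genes only a single pair of whole numbers gives the deposited mean. All 2392 low means in summer and all 2700 in winter (up to 10) were such sums within the rounding of the deposited value. This gave the reads of 38 ciliary genes in both summer libraries, and of 22 genes in all 4 libraries. Such genes have low means, since a high mean can be made from several pairs. Libraries are called here after their size factors (winter, 1.325 and 0.946; summer, 0.922 and 0.877), because the reads could not be matched to replicate numbers. The gene models of the count tables carry no names. Of 4868 named genes of many summer reads that were checked, 1224 had their pair of reads on a gene model, in either order. How many would do so by chance was not computed, and models were not assigned to genes.

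A summer library stood apart from the rest. Of 9863 symbols with reads known in all libraries, 15.0% had 0 reads in the 0.922 summer library, against 2.95% in the 0.877 summer library and 2.65% and 3.59% in winter. In the count tables, where libraries keep their replicate numbers, summer replicate 2 had a read on 40178 of 64989 gene models and the other libraries on 49320 to 52456. That replicate held 5520242 reads on gene models and summer replicate 1 held 4406533. Recovered reads of the tested genes came to 370364 in the 0.922 library and 426313 in the 0.877 library. Which replicate the 0.922 library is remains unknown. Season differences of the ciliary lists are therefore also given against each summer library alone. A library that holds fewer cells of a type and one with less RNA per cell cannot be told apart in bulk tissue.

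By season means, ciliary genes were for the most part slightly higher in summer. Of the 45 that reached a mean of 10 in either season (all but FOXJ1 and BBS10), 33 were higher in summer, or 73.3%, against 53.8% of the 13811 genes of this level. The axonemal genes were higher in summer in 18 of 25 and the transport genes in 15 of 20. The median log2 ratio of winter to summer means was -0.27 for axonemal genes, -0.12 for transport genes and -0.036 for all genes. The means lay more than 2-fold apart in 2 ciliary genes, SPAG6 and DNAH2, while 7.26% of all genes were as far apart. These means are the authors' own and carry no error.

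**Figure D1:**
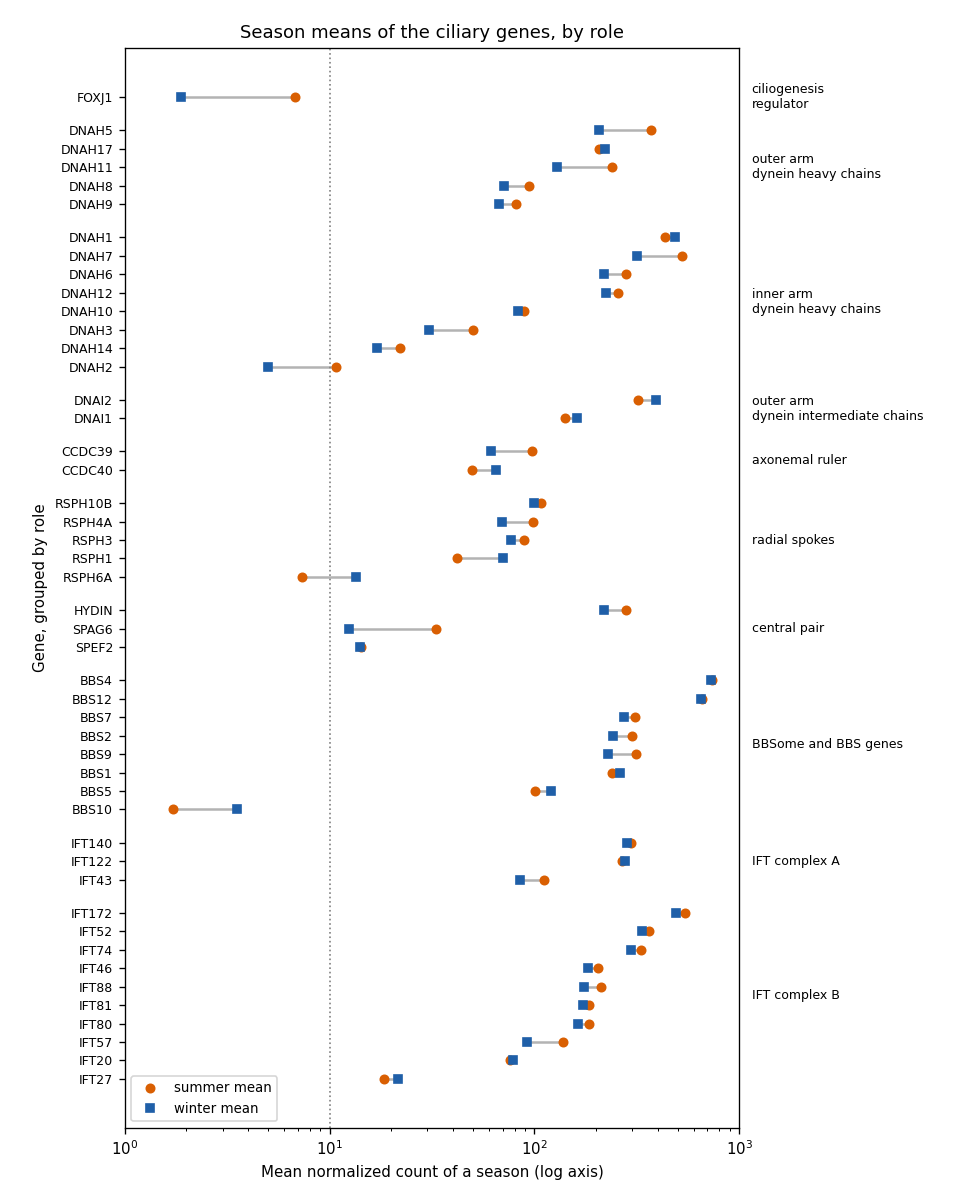
Mean normalized count of each of the 47 genes in summer (circles) and winter (squares), on a log axis, grouped by role, with intraflagellar transport written as IFT and a dotted line at 10. Most pairs lie close together with the circle to the right, and the widest gaps are at low levels, as for SPAG6 with 33.0 in summer and 12.5 in winter.

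No ciliary gene passed a test of season. When the recovered reads of all 4 libraries were fitted with edgeR's quasi-likelihood test and p-values adjusted by the Benjamini-Hochberg method, 0 of 7621 genes, or 0%, passed an adjusted p of 0.05, the 20 testable ciliary genes among them. At an unadjusted p under 0.05, 152 genes (1.99%) were left, and 128 (1.68%) when also more than 2-fold apart, which was the rule of the study, and 0 of the 20 ciliary genes passed either. With DESeq2 and with edgeR's exact test, 0 of the 20 passed as well. Libraries of the same season varied with a common coefficient of 0.46 (edgeR's biological coefficient of variation, all genes tested). Winter and summer libraries did not overlap in 2 of the 20, against 30.6% of all genes, and in 4 with TMM factors and 5 with totals of recovered reads. The share of all genes was not taken under these other factors, so the counts of 4 and 5 have no share beside them. For 9 further genes overlap depends on which solution is taken.

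The spread lay in summer. In 11 of 22 axonemal genes the 0.877 summer library was more than 2-fold above the 0.922 library, as it was in 1 of 14 transport genes and in 19.5% of all genes. The 0.922 library was as far above the other in 0 ciliary genes and in 5.25% of all genes. The median log2 ratio of the summer libraries was 1.05 for axonemal genes, 0.24 for transport genes and 0.097 for all genes. Other size factors (TMM, RLE and totals of recovered reads) shifted every such ratio by -0.25 to -0.27. This left 10 of 22 axonemal genes above 2-fold, against 15.3%, 15.6% and 15.2% of all genes. The shift turned the transport median below 0, to -0.034, -0.011 and -0.038. The median of all genes fell further, to -0.173, -0.149 and -0.176. In winter, by contrast, the libraries were more than 2-fold apart in 1 of 20 ciliary genes, DNAH2, which was higher in the 0.946 library, and in 16.8% of all genes, 5.86% in that direction.

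FOXJ1, the forkhead factor that switches on the genes of motile cilia, was near the lower limit of detection. It had 2 and 10 reads in the summer libraries of factor 0.922 and 0.877, and 5 and 0 reads in the winter libraries of factor 1.325 and 0.946. A count of 0 allows up to 3 reads. Below, a pair of reads keeps this order of libraries in each season, and a ratio of summer reads is that of the scaled 0.877 to the 0.922 library. The seasons overlapped, and with means of 6.78 in summer and 1.89 in winter the gene fell under the level required for the test.

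The outer dynein arms drive the beat, and their heavy chains are the motors. DNAH5, a main motor of the ependymal and airway cilium, had means of 372 in summer and 206 in winter, and DNAH11 of 238 and 129. The reads of DNAH11 were 171 and 255 in the summer libraries, a normalized ratio of 1.57 (95% counting interval 1.29 to 1.91). The summer reads of DNAH5 could be 671 and 15 or 157 and 504, so both pairs were far from even. DNAH8 had 25 and 142 summer reads, a ratio of 5.97 (3.88 to 9.54), and 66 and 87 winter reads in the order of factors 1.325 and 0.946. Both winter libraries of DNAH8 lay between those of summer, and its fitted log2 fold change of winter over summer was -0.42 ± 0.73 (SE, adjusted p = 0.982 by edgeR's quasi-likelihood test). DNAH9, found in the outer arms of the distal cilium, had 47 and 98 reads in summer (ratio 2.19, 1.53 to 3.17) and 86 and 66 in winter. DNAH17, best known from sperm, was even in summer with 191 and 181 reads, and its means of 207 and 221 were close. All intervals of a ratio given here cover counting error only.

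The intermediate chains DNAI1 and DNAI2, which dock the outer arm motors, were the only role in which every member was higher in winter. DNAI1 had means of 141 in summer and 161 in winter, and DNAI2 of 320 and 395. DNAI1 nevertheless differed between the summer libraries, with 94 and 158 reads (1.77, 1.36 to 2.31). Its winter mean lay between them. The summer reads of DNAI2 were 351 and 227 or 166 and 403, which leaves their order unknown.

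The inner arm heavy chains, which shape the waveform, included both even and uneven genes. DNAH1 had 425 and 358 summer reads and means of 434 in summer and 484 in winter. DNAH6 had 248 and 258 summer reads and means of 282 and 219, and DNAH10 76 and 84 summer reads with 110 and 78 in winter. These genes differed little between the summer libraries, each with a counting interval that holds 1. DNAH3 had 16 and 73 summer reads, a ratio of 4.80 (2.76 to 8.83), and 31 and 36 winter reads. DNAH14 had 2 and 37 summer reads, a ratio of 19.4 (5.02 to 167), and 17 and 20 winter reads. In both, the winter libraries fell within the gap between the summer libraries. DNAH2 had 5 and 14 summer reads and 2 and 8 winter reads, and its log2 fold change was -1.21 ± 1.12 (SE, adjusted p = 0.982 by edgeR's quasi-likelihood test). Its seasons overlapped. DNAH12 lay between these extremes with 189 and 269 summer reads (1.496, 1.24 to 1.81). The summer reads of DNAH7, with means of 527 and 317, were 827 and 138 or 313 and 627, more than 2-fold apart one way or the other.

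CCDC39 and CCDC40 form a ruler along the doublet that spaces inner arms and spokes. CCDC39 had 50 and 123 reads in summer (2.59, 1.85 to 3.67) and 56 and 76 in winter. CCDC40 had 24 and 64 reads in summer (2.80, 1.73 to 4.69) and 86 and 62 in winter. By season means the pair went opposite ways, CCDC39 at 97.2 in summer and 61.3 in winter and CCDC40 at 49.5 and 65.2. Between the summer libraries both were higher in the 0.877 library, with counting intervals that overlapped.

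The radial spokes reach from the doublets toward the central pair, and both genes of the 20 whose seasons did not overlap belong to them. RSPH3, a stalk protein, had normalized reads of 79.2 and 98.0 in summer and 74.7 and 78.3 in winter. RSPH4A, a protein of the spoke head, had 75.9 and 121 in summer and 71.7 and 66.6 in winter. In both genes each summer library lay above each winter library, though the nearest values were close, and 17.2% of all genes stood apart in that direction. Their log2 fold changes were -0.21 ± 0.35 and -0.50 ± 0.38 (SE, adjusted p = 0.982 for both by edgeR's quasi-likelihood test). RSPH1, another head protein, had 8 and 66 reads in summer, a ratio of 8.67 (4.15 to 20.9), and 89 and 70 in winter. Its winter level of 67.2 and 74.0 normalized reads was that of the 0.877 summer library at 75.2, and the 0.922 library at 8.68 stood alone. RSPH6A had 3 and 10 summer reads and 12 and 17 winter reads, with overlap once scaled, since 9.06 in winter lay under 11.4 in summer. RSPH10B, which has a near-identical copy in some mammals so that reads may be shared, had 67 and 125 summer reads and 128 and 97 winter reads.

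The central pair genes showed the widest gap between the summer libraries. SPAG6 had 1 and 57 reads in summer, a ratio of 59.9 (10.3 to 2408), and 12 and 15 in winter. SPEF2 had 1 and 24 reads in summer, a ratio of 25.2 (4.11 to 1037), and 19 and 13 in winter. In both genes the winter libraries were close to each other and lay between the summer libraries. The log2 fold change of SPAG6 was -1.42 ± 1.21 and that of SPEF2 0.0067 ± 1.04 (SE, adjusted p = 0.982 and 0.998 by edgeR's quasi-likelihood test). HYDIN, a large protein of the central pair projections, had 189 and 314 summer reads (1.75, 1.45 to 2.10) and means of 281 and 219.

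**Figure D2:**
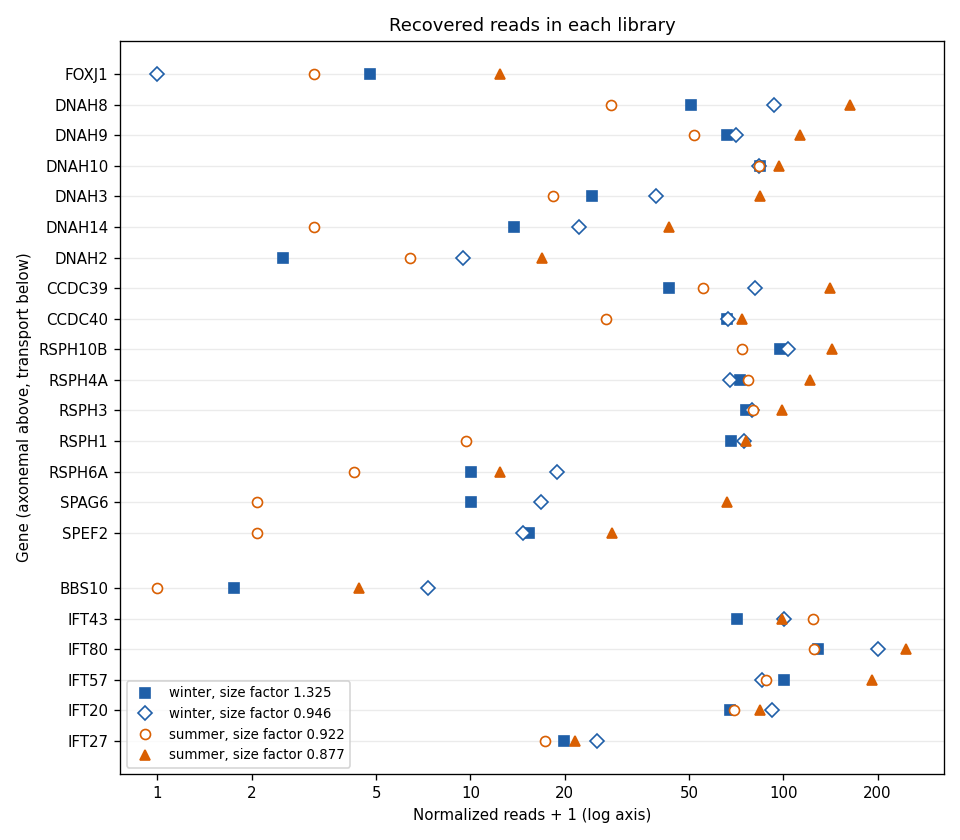
Normalized reads plus 1, on a log axis, of the 22 genes with a single solution in all libraries. Squares and diamonds stand for the winter libraries, open circles and filled triangles for the summer libraries, each named by its size factor. In SPAG6, SPEF2, DNAH14, RSPH1, DNAH8 and DNAH3 the open circle lies far to the left and the triangle at or to the right of the winter points, while most transport genes are closer together.

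Transport genes were more even. Of complex A, IFT122 had 239 and 245 summer reads, IFT140 285 and 246, and IFT43 114 and 86, with season means of 269 and 277, 295 and 283, and 111 and 84.8. The counting interval of each of these ratios held 1. Of complex B, the core proteins IFT88 and IFT52 were higher in the 0.922 library, with 223 and 159 reads (0.749, 0.608 to 0.923) and 371 and 283 reads (0.802, 0.684 to 0.938). IFT57 and IFT80 went the other way, with 80 and 167 reads (2.19, 1.67 to 2.90) and 115 and 216 (1.97, 1.57 to 2.50). Complex B thus held transport genes of either direction between the summer libraries. IFT57 had the widest season difference of the complex, with means of 139 in summer and 92.1 in winter, but its winter reads of 132 and 80 came to 99.6 and 84.6 once scaled, on either side of 86.8 in the 0.922 summer library. Its log2 fold change was -0.58 ± 0.43 (SE, adjusted p = 0.982 by edgeR's quasi-likelihood test). IFT27, a small GTPase of the complex, had 15 and 18 summer reads and 25 and 23 winter reads. IFT172, the largest subunit of complex B, had means of 544 and 493 and no single pair of summer reads.

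The BBS genes were close between seasons. BBS4 had means of 740 in summer and 732 in winter, and BBS12, which helps to fold the complex, of 658 and 648. BBS9 was higher in summer, 314.5 against 228, with 250 and 314 summer reads (1.32, 1.11 to 1.57). BBS5 was higher in winter, 120 against 101, with 77 and 104 summer reads (1.42, 1.05 to 1.93). BBS10, the other folding helper, was near the lower limit with 0 and 3 summer reads and 1 and 6 winter reads. BBS1, BBS2, BBS4 and BBS12 had several pairs of summer reads, and their levels in single libraries are not given.

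The direction of the season difference in axonemal genes rested on which summer library was used. Of 22 axonemal genes, 6 had a higher mean in winter than in summer with both summer libraries. Against the 0.922 library alone 17 of the 22 were higher in winter, with a median log2 ratio of 0.29, and against the 0.877 library alone 3 were, with a median of -0.61. The 14 transport genes went from 4 higher in winter with both libraries to 7 and 4. Of 11779 genes of this level with known summer reads, 5454 were higher in winter with both libraries. Against the 0.922 library alone 6596 of them were, and against the 0.877 library alone 5696. Their median log2 ratio went from -0.039 to 0.094 and -0.020, so all genes turned in part as well. Without the 0.922 library, SPAG6 passed an adjusted p of 0.05 as lower in winter (log2 -2.40, adjusted p = 0.0292 by edgeR's quasi-likelihood test, with the lone summer library assumed to vary like those of winter). Without the 0.877 library its log2 fold change was 3.36, and RSPH1 passed as higher in winter (3.01, adjusted p = 0.00251 by the same test). Each was the only one of the 20 past an adjusted p of 0.05 in its fit, in which 3.04% and 2.9% of all genes passed. Under either omission 6 of the 20 ciliary genes passed the rule of the study, against 14.4% of all genes without the 0.922 library and 15.1% without the 0.877 library, and 0 ciliary genes passed with all libraries.

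**Figure D3:**
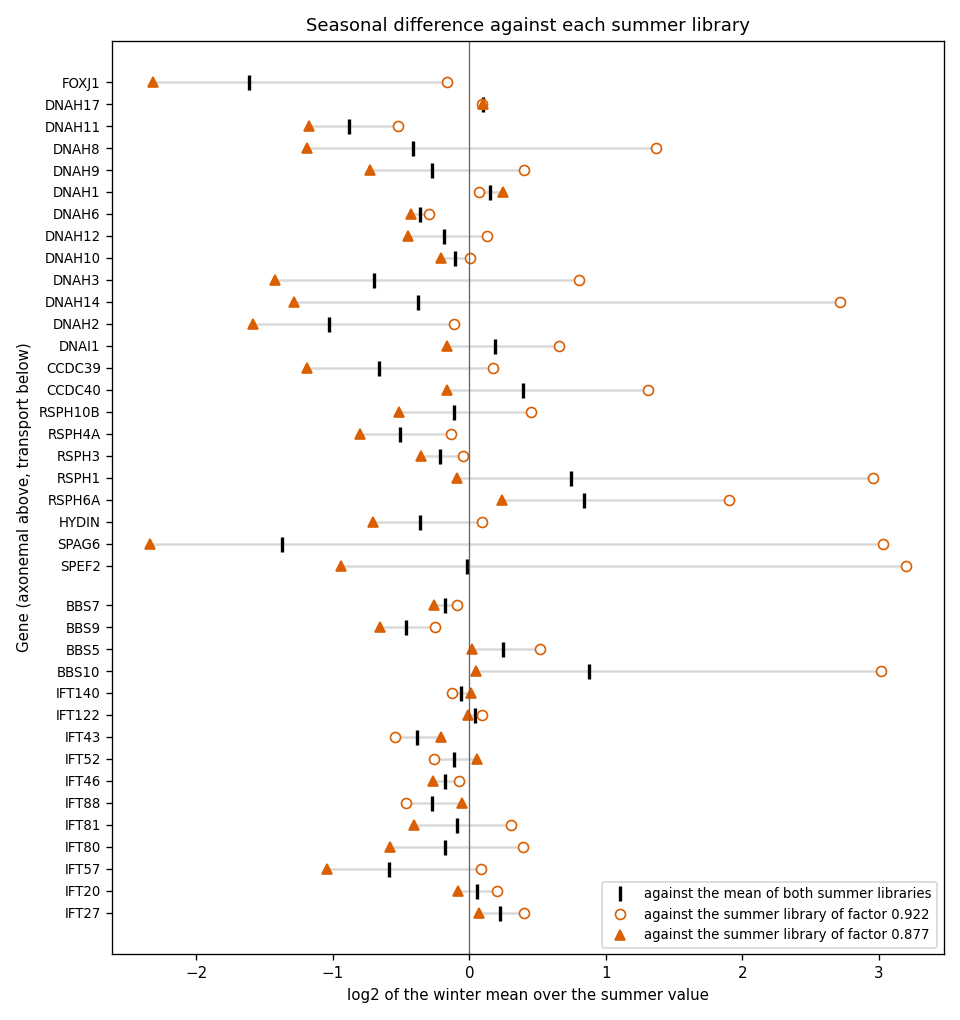
Log2 ratio of winter to summer, from the deposited winter mean, for the 38 genes with known summer reads, with both summer libraries (bars), with the 0.922 library alone (open circles) and with the 0.877 library alone (triangles). The axonemal symbols spread to both sides of 0, widest for SPAG6 and SPEF2, and most transport symbols stay near it, BBS10 apart.

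Summed over 23 axonemal genes, normalized reads came to 2144 in the 0.922 library, 3319 in the 0.877 library, a ratio of 1.55, and 2415 for the winter means. Over 15 transport genes the sums were 2609, 2957 and 2492, a ratio of 1.13 between the summer libraries. The axonemal sum of winter thus lay between those of the summer libraries and the transport sum below both.

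The gap between the summer libraries followed the level of a gene over the whole table, and the axonemal genes have to be read against it. The 0.877 library was more than 2-fold higher in 60.5% of genes with a winter mean under 10, in 42.7% from 10 to 30, in 20.1% from 30 to 100, in 8.03% from 100 to 200, and in 3% from 200 to 400 and in 1.1% above. The axonemal genes of these ranges, with FOXJ1, were as far apart in 2 of 2, 4 of 4, 6 of 10, 0 of 2, 0 of 4 and 0 of 1. Transport genes, with BBS10, were so in 1 of 1, 0 of 1, 1 of 3 and then 0 of 10. Genes of olfactory receptors, which are not ciliary genes of the ependyma, differed likewise, with 209 of 260 more than 2-fold higher in the 0.877 library and a median log2 ratio of 3.34. The part of this library-wide difference in the ciliary values was not tested, nor was it tested whether low reads in a library stand for mature transcripts.

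**Figure D4:**
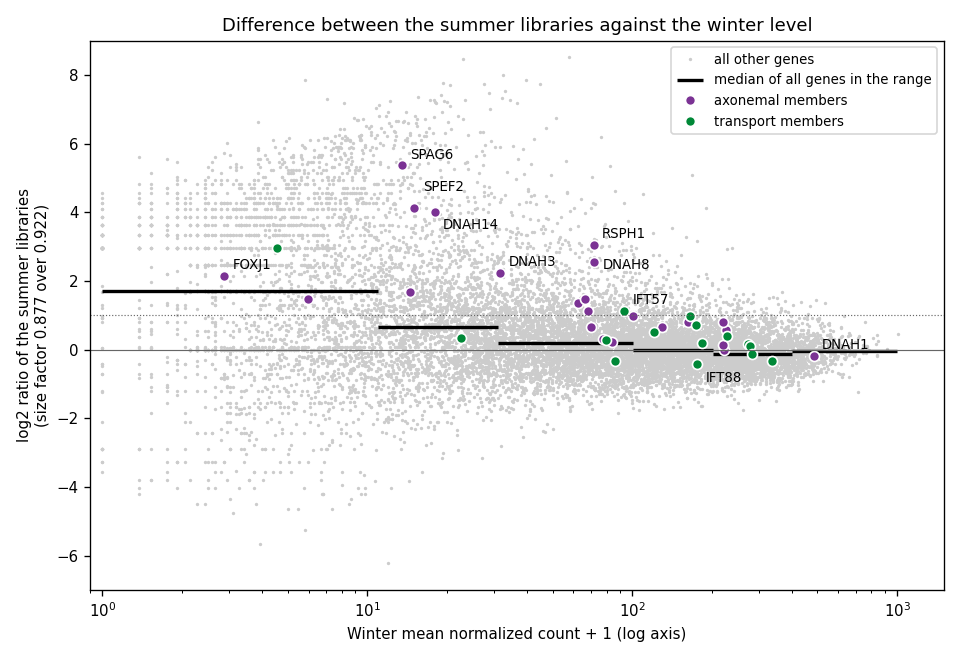
Log2 ratio of the summer libraries (factor 0.877 over 0.922) against the winter mean normalized count plus 1, on a log axis, for all genes with a single summer solution (grey), axonemal genes (purple) and transport genes (green). Black bars are medians of all genes by range of the winter mean and the dotted line marks a 2-fold ratio. The cloud rises toward low levels, and axonemal genes from SPAG6 to DNAH3 lie above the median of their range.

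Other genes of the motile cilium were also uneven between the summer libraries. Of 109 listed genes 86 were measured. Of 77 that reached a mean of 10, 61 were higher in summer (median log2 ratio -0.27), against 53.8% of all genes. Of 72 with known summer reads, 36 were more than 2-fold higher in the 0.877 summer library, with 0 in the other direction. All genes were so in 19.5% and 5.25%. Of the 72 listed genes, 15 were higher in winter with both summer libraries. Against the 0.922 library alone 49 were, with a median log2 ratio of 0.31. Against the 0.877 library alone 9 were, with a median of -0.58, so the direction turned here too. The median of all genes went from -0.039 with both libraries to 0.094 and -0.020. The list was not set against all genes of the same level. Its highest means were those of MAK (626 in summer and 571 in winter), CCDC146 (516 and 475) and TPPP3 (541 and 421). None of 56 tested passed the rule of the study or an adjusted p of 0.05. At an unadjusted p under 0.05 there were 0.

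Among genes that switch on motile cilia some were uneven in summer and others were not. Of 13 measured, 6 of 11 were more than 2-fold higher in the 0.877 summer library, against 19.5% of all genes. This list too was not set against all genes of the same level. Of 8 tested, 0 passed the rule. Against the 0.922 library alone 9 of the 11 were higher in winter (median log2 ratio 1.36) and against the 0.877 library alone 3 were (-0.65), as with both. MCIDAS and GMNC, regulators of multiciliated cells that act before FOXJ1, had 1 and 83 and 0 and 20 reads in the summer libraries of factor 0.922 and 0.877, and 22 and 40 and 10 and 6 in winter. MYB, which acts with them, had 0 and 66 in summer and 17 and 9 in winter. The winter means of MCIDAS, GMNC and MYB were 29.5, 6.95 and 11.2. Of all genes, 60.5% with a winter mean under 10 and 42.7% from 10 to 30 were more than 2-fold higher in the 0.877 library. MCIDAS, GMNC and MYB, and E2F4 and TP73, were named after their values were seen. The highest means were those of ULK4 (485 in summer and 384 in winter), RFX3 (280 and 228) and RFX4 (231 and 205), the RFX factors serving primary cilia also, and RFX3 had 228 and 275 summer reads and RFX4 174 and 240. E2F4 went the other way with 168 and 88, and TP73 was even with 19 and 16.

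Lists of genes shared by all cilia did not exceed the share of all genes that were far apart. Between the summer libraries 0 of 15 other genes of intraflagellar transport, 1 of 8 other BBSome genes and 4 of 23 transition zone genes, which form the gate at the base of the cilium, were more than 2-fold higher in the 0.877 library. Of all genes 19.5% were as far above, and the BBSome and transition zone counts are near that share. The lists were not set against all genes of the same level. Of these lists 0 of 9, 0 of 5 and 0 of 14 tested genes passed the rule. Higher in winter were 9, 4 and 5 of them with both summer libraries, 10, 4 and 12 against the 0.922 library alone and 8, 4 and 4 against the 0.877 library alone. DYNC2H1, the motor of the return transport, had means of 1235 in summer and 1036 in winter, KIFAP3, a subunit of the outward motor, 822 and 795, and TRAF3IP1 485 and 812. PCM1 had 1532 and 1547, AZI1 256 and 444 and TTC8 358 and 247. AHI1 had 1110 and 1190, CEP290 517 and 502 and RPGRIP1L 461 and 354.

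Markers of ependymal cells were set beside the axonemal genes. Of 13 ependymal markers 12 were measured and none was at 0 in a season. Over 11 of them normalized reads summed to 352 and 360 in winter (factors 1.325 and 0.946), 347 in the 0.922 summer library and 885 in the 0.877 summer library. RARRES2 made up much of that difference, and without it the sums were 263 and 305 in winter and 259 and 416 in summer, a ratio of 1.61 between the summer libraries in place of 2.55. Of 9 markers that reached a mean of 10 and had known summer reads, 4 were more than 2-fold higher in the 0.877 library and 0 in the other. All genes were so in 19.5% and 5.25%. These markers were not set against all genes of the same level, and TMEM107 is on the transition zone list as well. The highest means of the ependymal list were those of S100B (11788 in summer and 7490 in winter), RARRES2 (278 and 72.0) and ACTA2 (134 and 80.3). In bulk tissue these levels need not come from ependymal cells. S100B has no single pair of summer reads and is left out of the sums. ACTA2 had 134 and 107 summer reads, while 7 of the 9 markers were higher in the 0.877 library. RARRES2 was the only ependymal marker past the rule of the study, lower in winter (log2 -1.93, adjusted p = 0.982 by edgeR's quasi-likelihood test). Its seasons overlapped, with 87.8 and 468 normalized reads in summer and 89.0 and 55.0 in winter, and without the 0.877 library its log2 fold change was -0.28. Of the 9 markers 3 were higher in winter with both summer libraries, 5 against the 0.922 library alone and 1 against the 0.877 library alone. FOXJ1, the defining factor, was at 0 to 10 reads in all 4 libraries.

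Markers of other cells also differed between the summer libraries. The sum over markers in the 0.877 library was 2.93 times that in the 0.922 library for astrocytes (5 of 5 genes more than 2-fold higher), 2.16 for the choroid plexus (3 of 6), 1.89 for neurones (6 of 9), 1.54 for tanycytes (4 of 8), 1.31 for supraoptic neurones (2 of 7), 1.19 for optic nerve and meninges (1 of 8) and 1.08 for adenohypophysis (3 of 5). It was 0.879 for endothelial cells (0 of 8), 0.708 for oligodendrocytes (0 of 3) and 0.653 for microglia (0 of 3). Of all genes 19.5% were more than 2-fold higher in the 0.877 library, and 42.7% of those with a winter mean of 10 to 30. The marker counts were not set against all genes of the same level. The sums cover only markers with a single pair of summer reads, and so of low mean. Of markers that reached a mean of 10, they hold 5 of 11 for astrocytes, 3 of 11 for oligodendrocytes and 3 of 8 for microglia. GFAP, with means of 25074 in summer and 14423 in winter, is left out. The sums are therefore not levels of whole cell types. The 0.922 library was more than 2-fold higher in 5.25% of all genes. Of the markers it was so in 2 adenohypophysis genes and in 1 gene each of tanycytes, endothelial cells and microglia, and in 0 of the other lists. Their part in the ciliary values was not tested. Of these markers TGFB2, KDR, COL1A2 and PDYN passed the rule, with log2 fold changes of winter over summer of 1.67, -1.26, -1.02 and -1.76 and an adjusted p of 0.982 each by edgeR's quasi-likelihood test. Without the 0.922 library these were 1.16, -1.02, -0.81 and -1.78 and without the 0.877 library 2.41, -1.47, -1.19 and -1.79, and COL1A2 no longer passed the rule without the 0.922 library. Leaving out a winter library ended the call of TGFB2 and COL1A2 either way, of KDR without the 1.325 library (-1.11) and of PDYN without the 0.946 library (-1.004).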

How the data were processed

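The 4 RNA-seq libraries were grouped by the season in their labels. The authors removed ribosomal RNA, prepared stranded libraries, used TopHat to align reads to an assembly they made themselves, and HTSeq for counting. The deposited count tables hold raw counts per unnamed gene model. They served for depth, for the number of models with a read and for the check of read pairs. For named genes the authors deposited a signal, which is each season's mean of size-factor-scaled counts. They also deposited a ratio (fold change) and a p-value per gene, which were not used.

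Each deposited mean was solved for whole reads with Python 3.11.15. Genes with a single solution in both seasons that reached a mean of 10 in either season entered edgeR 4.0.16 (R 4.3.3, quasi-likelihood test, season as the only term, size factors from the steps) and were adjusted by the Benjamini-Hochberg method over 7621 genes. Alternatives were DESeq2 1.42.0, the exact test, TMM and other scalings, other filters, pseudocounts and fold thresholds, several solutions, and leaving out each library. Ratios of season means and of summer libraries were taken on the log2 scale after adding 0.5. Counting intervals are exact at 95%. The steps were tested on simulated data.

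Members and lists were chosen with earlier results of these data known. Named were FOXJ1, in each role the 2 highest means and the 2 widest season ratios, the 3 widest ratios in each direction, in the other ciliary lists and the ependymal list the 3 highest means, and in every list the genes past the rule of the study. Other genes were named outside these rules. Among them are DNAH3, DNAH6, DNAH8, DNAH9, DNAH10, DNAH12, DNAH14, RSPH3, SPEF2, IFT27, IFT80 and BBS5. Several of these differ widely between the summer libraries, so the named genes are no sample of the members. The other marker lists are given as sums and counts. Levels were not compared between genes, since gene lengths were not used here, and the planned comparison of sequences was not run.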

Additional observations from a re-analysis of the deposited data

How the results depend on the processing

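With 2 libraries in each season, leaving out 1 library reversed the fold change of 14 of the 20 tested ciliary genes in at least 1 of the fits. Recovered reads exist for genes of low mean, so the tests say little about abundant ciliary genes. The median log2 ratio of winter to summer was -0.18 over 45 ciliary genes and -0.24 over the 20 with reads known in all libraries. Over these 20 it ran from -0.65 to 0.40 when libraries were left out, the reversal arising without the 0.877 summer library. The number past an adjusted p of 0.05 then ran from 0 to 1, past the rule of the study from 0 to 6 of 20, and of the other ciliary lists from 0 to 23 of 92, against 0.433% to 15.1% of all genes past the rule in the same fits. Axonemal genes higher in winter ran from 3 to 17, transport genes from 4 to 7 and all genes from 5454 to 6596 of 11779. With the least even solutions, 1 gene of the other lists passed the rule. Seasons did not overlap in 4 genes with TMM factors and 5 with totals of recovered reads, against 2, and the share of all genes was not taken under these factors. The transport median between the summer libraries was -0.034 with TMM factors, -0.011 with RLE factors and -0.038 with totals. The median of all genes was then -0.173, -0.149 and -0.176. These alternatives for the summer libraries were chosen after seeing the data. Of 178 fold changes of single genes under alternatives that keep all libraries, 4 reversed: RSPH10B to 0.018 with totals, and SPEF2 to -0.015 with DESeq2, -0.014 with the exact test and -0.017 with the least even solutions. Leaving out a library reversed 17 of 80 fold changes, in 14 genes. The lowest and highest log2 fold changes were -1.20 and 0.17 for CCDC39, -0.16 and 1.32 for CCDC40, -0.21 and 0.0059 for DNAH10, -1.33 and 2.88 for DNAH14, -1.45 and 0.80 for DNAH3, -1.20 and 1.37 for DNAH8, -0.73 and 0.40 for DNAH9, -0.19 and 0.26 for IFT20, -1.04 and 0.088 for IFT57, -0.59 and 0.39 for IFT80, -0.093 and 3.01 for RSPH1, -0.52 and 0.45 for RSPH10B, -2.40 and 3.36 for SPAG6 and -0.95 and 3.56 for SPEF2. The cause of these changes was not tested. No paired analysis was possible because the winter and summer libraries came from different animals, slaughtered at different places and dates.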
